A study of Mus musculus with 4 samples.

Results

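The cell cycle and DNA replication genes are 53 genes of the machinery by which a cell copies its DNA and divides, chosen by name from the 35869 genes listed in the deposited tables. They comprised 16 genes of DNA replication, 10 regulators of G1 and of the step into S phase, 23 genes of G2, mitosis and cell division and 4 inhibitors of cyclin-dependent kinases (CDKs). RNA-seq was performed on CD45+ cells, a bead-enriched immune fraction, from the stromal vascular fraction of the epididymal white adipose tissue (eWAT) of male wild-type C57BL/6 mice. There were 2 libraries from mice on a normal diet (ND) and 2 from mice on a high fat diet (HFD), with the diets given for 12 weeks from an age of 8 weeks. No allele was changed and no other agent was given in either group. The number of mice behind each library is not given in the sources used here, so the p-values measure the spread between these libraries, which may in part be technical. Expression is given as TPM (transcript abundance scaled to the same total in every library), that is, as a share of the RNA of a library after correction for gene length.

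A cell commits to division in G1, when D-type cyclins with Cdk4 or Cdk6, and then cyclin E with Cdk2, inactivate the retinoblastoma proteins and free the E2F factors, which switch on the genes of DNA replication. Later in the cycle, cyclin A and cyclin B with Cdk1 drive the cell into mitosis, and the genes of this phase, which the DREAM complex represses in resting cells, are switched on by the MuvB complex with B-Myb and FoxM1. These complexes act at promoter elements called CHR, often next to CCAAT boxes bound by NF-Y. CDK inhibitors of the Cip/Kip and Ink4 families hold these kinases back. In adipose tissue, immune cells including macrophages can divide in place, which is one way in which their number grows in obesity.

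The promoters were searched for the elements of these factors. RefSeq promoter windows of GRCm38.p6 (the assembly called mm10), each running from 250 bases before to 50 bases after a transcription start, were available for 43 members in 51 windows. The sets of letters below were searched on both strands: the E2F-type letters TTTCCCGC, TTTGGCGC, TTTCGCGC and TTTGGCGG, the CHR letters TTTGAA and TTTAAA, and the letters CCAAT of the NF-Y box. Matches of the E2F-type letters may overlap each other, and TTTAAA, which reads the same on both strands, was counted once. Among the mitosis genes, 17 of 19 windows held CHR letters (89.5%), 17 of 19 held CCAAT and 16 of 19 held both (84.2%). Of all 32851 windows in the table, 27.6% held CHR letters, 37.4% CCAAT and 10.7% both. Among the replication genes, 7 of 16 windows held E2F-type letters (43.8%), against 2.37% of all windows and 1 of 19 windows of the mitosis genes. CCAAT was in 12 of 16 windows of the replication genes and CHR letters in 6 of 16. Of the 9 windows of the G1 regulators, 2 held E2F-type letters, 2 CHR letters and 4 CCAAT, and of the 7 windows of the inhibitors 1 held E2F-type letters, 1 CHR letters and 3 CCAAT. A match is a description of the letters and not a binding site, and the 2 windows of Prc1 overlap.

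**Figure D1:**
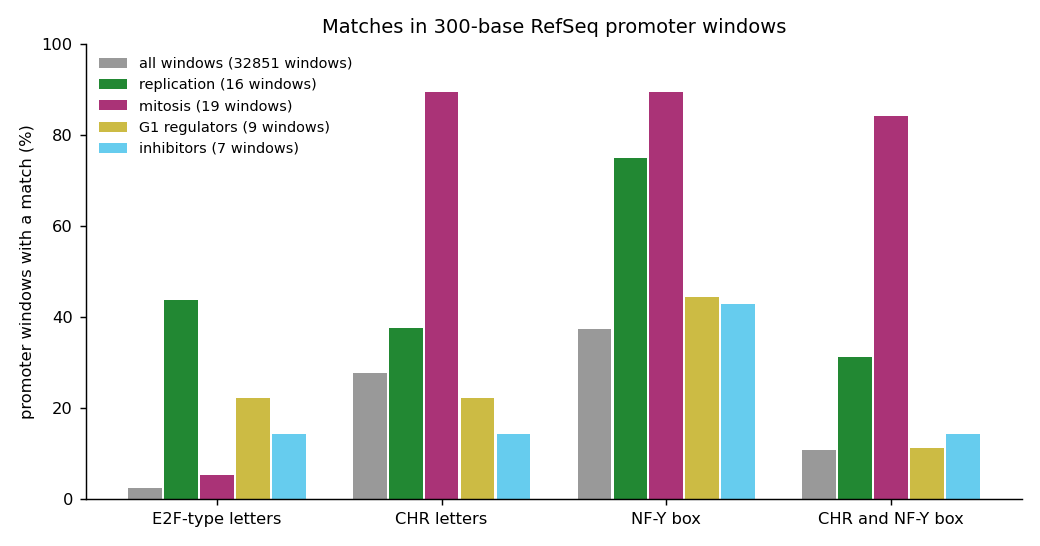
Percentage of RefSeq promoter windows, on the vertical axis, that held each set of letters, for all 32851 windows and for the 4 groups of members (bars, with the number of windows in the key). The mitosis genes stand out for windows with both CHR letters and CCAAT (84.2% against 10.7% of all windows) and the replication genes for E2F-type letters (43.8% against 2.37%).

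Of these, 6 windows are shown as examples, from DEGs that rose, a DEG that fell and a gene that was not a DEG, so that the letters can be read beside their levels. They are those of Ccnb1 and Cdk1, the mitosis genes with the largest increases, of Cenpa, a mitosis gene that did not rise, of Mcm6 and Rrm2, replication genes that rose, and of Ccnd3, a D-type cyclin that fell. Each is written 5′ to 3′ on the strand of the gene, with the matched letters in capitals. Ccnb1 lies at chr13:100786437-100786736 on the minus strand, Cdk1 at chr10:69352863-69353162 on the minus strand and Cenpa at chr5:30666636-30666935 on the plus strand. Mcm6 lies at chr1:128359656-128359955 on the minus strand, Rrm2 at chr12:24708004-24708303 on the plus strand and Ccnd3 at chr17:47504801-47505100 on the plus strand.
Ccnb1: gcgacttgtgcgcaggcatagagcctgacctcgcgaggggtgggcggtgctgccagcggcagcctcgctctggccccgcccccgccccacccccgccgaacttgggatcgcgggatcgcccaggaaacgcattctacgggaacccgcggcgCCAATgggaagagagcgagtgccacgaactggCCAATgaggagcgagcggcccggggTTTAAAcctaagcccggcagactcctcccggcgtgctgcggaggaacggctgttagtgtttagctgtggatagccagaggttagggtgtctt
Cdk1: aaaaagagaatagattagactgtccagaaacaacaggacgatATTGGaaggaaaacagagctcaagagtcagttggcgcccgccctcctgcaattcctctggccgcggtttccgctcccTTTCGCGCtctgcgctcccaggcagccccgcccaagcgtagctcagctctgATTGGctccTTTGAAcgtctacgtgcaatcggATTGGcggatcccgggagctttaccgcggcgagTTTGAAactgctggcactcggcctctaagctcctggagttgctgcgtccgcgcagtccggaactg
Cenpa: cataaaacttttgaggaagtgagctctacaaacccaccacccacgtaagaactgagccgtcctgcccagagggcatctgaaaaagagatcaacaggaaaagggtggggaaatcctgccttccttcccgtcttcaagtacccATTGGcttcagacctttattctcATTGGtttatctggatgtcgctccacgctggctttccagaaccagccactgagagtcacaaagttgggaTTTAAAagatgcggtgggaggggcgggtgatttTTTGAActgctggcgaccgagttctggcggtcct
Mcm6: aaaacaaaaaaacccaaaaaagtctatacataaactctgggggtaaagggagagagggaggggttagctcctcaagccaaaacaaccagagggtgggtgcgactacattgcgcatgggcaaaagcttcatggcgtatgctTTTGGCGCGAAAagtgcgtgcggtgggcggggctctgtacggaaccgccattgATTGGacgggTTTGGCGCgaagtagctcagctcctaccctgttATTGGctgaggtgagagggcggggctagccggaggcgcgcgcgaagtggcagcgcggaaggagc
Rrm2: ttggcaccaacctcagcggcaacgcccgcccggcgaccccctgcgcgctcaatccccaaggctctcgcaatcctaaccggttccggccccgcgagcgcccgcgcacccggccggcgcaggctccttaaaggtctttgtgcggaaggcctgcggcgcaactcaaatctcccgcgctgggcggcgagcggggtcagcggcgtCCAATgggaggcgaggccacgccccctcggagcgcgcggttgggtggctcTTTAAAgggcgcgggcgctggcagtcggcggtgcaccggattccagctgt
Ccnd3: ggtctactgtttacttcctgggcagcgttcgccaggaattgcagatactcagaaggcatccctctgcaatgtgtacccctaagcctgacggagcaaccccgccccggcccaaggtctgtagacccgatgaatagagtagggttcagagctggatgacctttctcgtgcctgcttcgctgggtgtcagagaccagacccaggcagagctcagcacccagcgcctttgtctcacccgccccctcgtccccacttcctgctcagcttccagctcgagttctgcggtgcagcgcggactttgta
The window of Ccnb1 held 2 CCAAT matches and 1 CHR match, and that of Cdk1 held 3 CCAAT, 2 CHR and 1 E2F-type match. That of Cenpa held 2 CCAAT and 2 CHR matches, so the same letters stood before a gene whose level did not rise. Mcm6 held 3 E2F-type matches, of which 2 overlap, and 2 CCAAT matches. Rrm2 held 1 CCAAT match and 1 CHR match at the start site, with no E2F-type match in the window. No match was found in the window of Ccnd3 shown, while the other window of this gene held 1 CCAAT match.

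Each library held between approximately 37600000 and 46900000 counted reads, estimated from the smallest steps of the TPM values, and 50 of the 53 members had at least 100 reads in every library. All 53 members passed the filter on low values, which kept genes that reached 1 TPM in 2 or more of the 4 libraries and left 16849 genes. In both diets the fraction carried macrophage RNA at a high level, with a summed TPM of 10 macrophage markers between 17505 and 21176 and Lyz2, the lysozyme of macrophages, at 6506 to 7827 TPM. Marker RNA of several cell types differed between the diets. Markers of lipid-associated macrophages rose (10 of 10, summed TPM 1920 and 1970 in ND against 11321 and 11798 in HFD), those of fibroblasts rose (7 of 9, 614 and 660 against 3094 and 6170), and those of T cells (7 of 7), B cells (7 of 7 tested), NK cells (6 of 6) and mast cells (5 of 5) fell. HFD replicate 1 also held more RNA of spermatids, with a summed TPM of 7574 against 2022 to 2276 in the other 3 libraries. In RNA from a mixed fraction, a change in the number of cells of a type cannot be told apart from a change in RNA per cell.

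The comparison asked whether HFD altered the expression of the division machinery of the CD45+ cells. It was higher in HFD for most members of replication and mitosis, and mixed for the G1 regulators and the inhibitors. A gene was called a differentially expressed gene (DEG) at an adjusted p-value under 0.05 (limma on log2(TPM + 1), Benjamini-Hochberg adjustment over 16849 genes) with a change of at least 1.5-fold. Of the 53 members, 28 were DEGs that rose, against 8.08% of all genes tested, 2 were DEGs that fell, against 10.3%, and 23 were not DEGs. Both HFD values lay above both ND values for 44 members, against 34.1% of all genes, and below them for 5 members, against 32.8%, and the groups overlapped for 4. The median log2 fold change was 0.79 over the members and 0.06 over all genes tested. These calls rest on 2 libraries a group. Without ND replicate 1 or without ND replicate 2, limma called 0 of the 53 members and 0 of the 16849 genes, with 26 and 29 members at an unadjusted p-value under 0.05. Without HFD replicate 1 it called 21 members (19 higher and 2 lower) and without HFD replicate 2 it called 32.

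**Figure D2:**
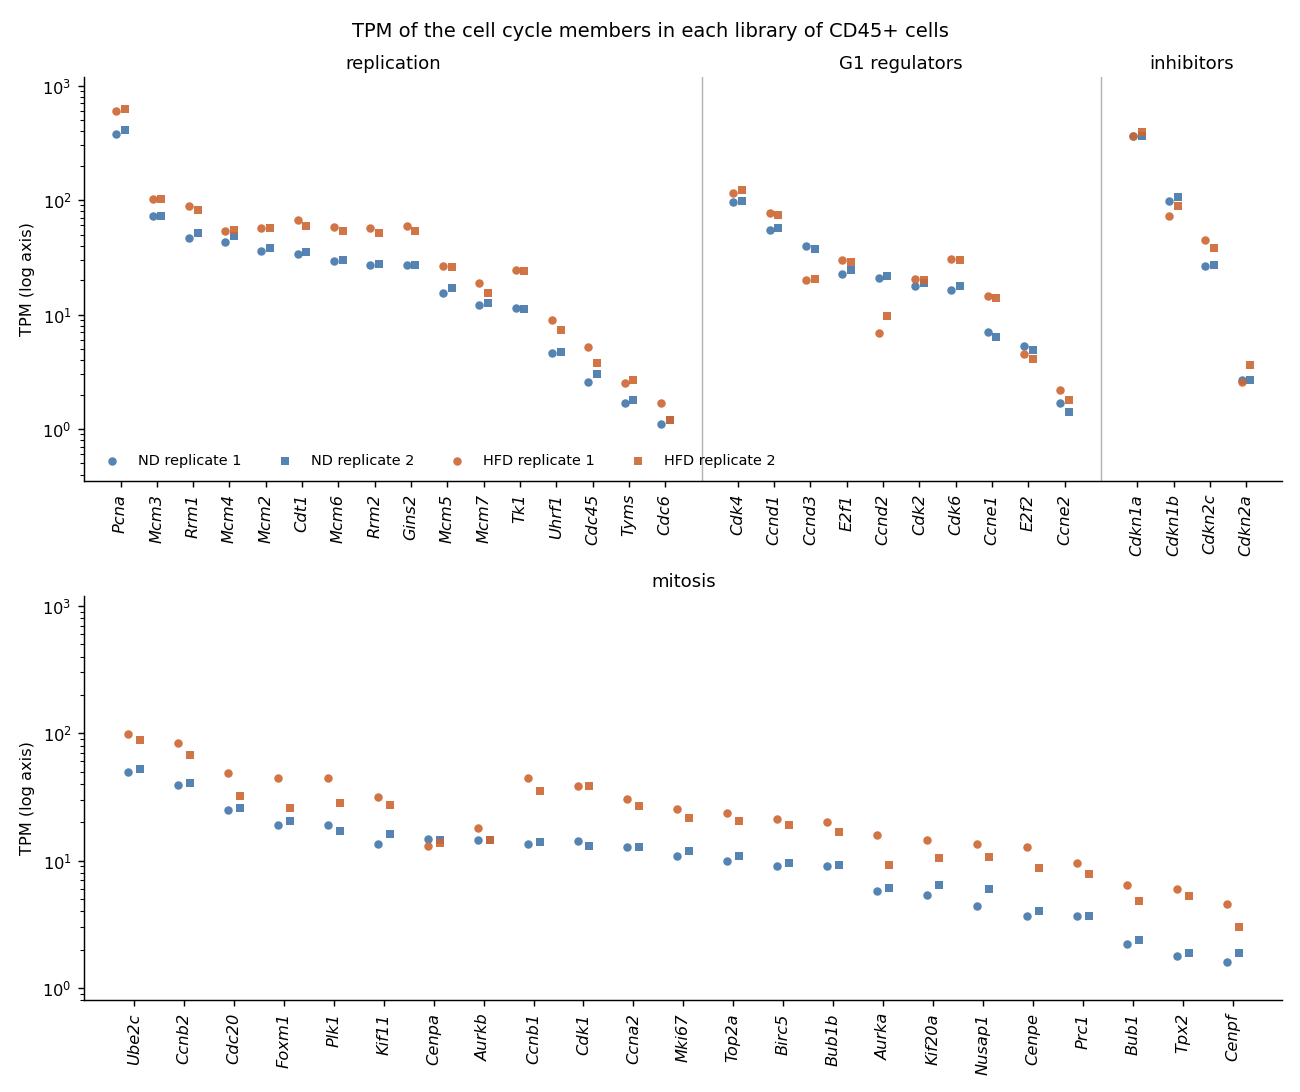
TPM on a log axis of all 53 members in each of the 4 libraries (circles, replicate 1; squares, replicate 2; blue, ND; orange, HFD), ordered within each group by the mean in ND. The HFD points lie above the ND points for 15 of 16 replication genes and 21 of 23 mitosis genes, while Ccnd2 and Ccnd3 show the reverse.

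The replication genes were higher in HFD as a group. Of 16 members, 10 rose, none fell and 6 were not DEGs, and the median log2 fold change was 0.65 with a range of 0.18 to 1.05. Their summed level was 744 and 793 TPM in the ND libraries and 1235 and 1224 TPM in the HFD libraries. All 10 calls were lost without either ND library, and 5 of the 10 were lost without HFD replicate 1 (Pcna, Mcm2, Mcm5, Rrm1 and Uhrf1). Without HFD replicate 2 there were 8, with Mcm5 and Rrm1 lost.

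Pcna, the sliding clamp that holds the DNA polymerases on the template, was the most abundant replication gene. Its TPM was 380 and 410 under ND and 605 and 627 under HFD, so the HFD libraries were both higher and the groups did not overlap. The log2 fold change was 0.64 ± 0.06 (SE, n = 2 per group, limma adjusted p = 0.0111). This call was near both limits: under median-ratio scaling the adjusted p was 0.0576, and under quantile normalization or without the 50 most abundant genes the log2 fold change was 0.58, which is less than 1.5-fold.

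Of the genes that supply DNA precursors, Tk1, Rrm2 and Rrm1 rose and Tyms did not pass. Tk1, the thymidine kinase of S phase, had 11.3 and 11.1 TPM under ND and 24.3 and 24.2 under HFD. Its libraries agreed closely within each diet, and its log2 fold change of 1.05 ± 0.06 (SE, adjusted p = 0.00627) was the highest of the group. Tk1 shares exon bases with Afmid on the other strand. Rrm2, the regulated subunit of ribonucleotide reductase, had 27.3 and 27.8 TPM under ND and 57.5 and 51.7 under HFD, a log2 fold change of 0.96 (adjusted p = 0.00941). Rrm1, the large subunit of the same enzyme, had 46.4 and 51.9 TPM under ND and 88.3 and 82.7 under HFD, a log2 fold change of 0.79 (adjusted p = 0.0144). In both genes the groups did not overlap. Tyms, thymidylate synthase, was low, with 1.7 and 1.8 TPM under ND and 2.5 and 2.7 under HFD. Both HFD values were higher, but the log2 fold change of 0.39 ± 0.10 (SE) did not pass (adjusted p = 0.0718).

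Among the factors that load and start the replicative helicase, Gins2, a subunit of the GINS complex, had 27.1 and 26.9 TPM under ND and 59.1 and 53.3 under HFD. Both HFD libraries stood at about the same distance above ND, with a log2 fold change of 1.03 ± 0.07 (SE, adjusted p = 0.00847). Gins2 shares exon bases with Gse1 on the other strand. Cdt1, which licenses origins by loading the MCM helicase, had 33.5 and 35.3 TPM under ND and 66.7 and 59.8 under HFD, a log2 fold change of 0.86 (adjusted p = 0.0120). Cdc6, the partner of Cdt1 in this step, was close to the limit of the filter at 1.1 and 1.2 TPM under ND and 1.7 and 1.2 under HFD, which is between 82 and 144 reads. Its groups overlapped, and its log2 fold change of 0.18 did not pass (adjusted p = 0.446). Cdc45, which joins the MCM and GINS proteins in the active helicase, had 2.6 and 3.0 TPM under ND and 5.2 and 3.8 under HFD. The HFD values were higher but uneven, and the log2 fold change of 0.52 (adjusted p = 0.119) was 0.34 with HFD replicate 1 left out and 0.71 with HFD replicate 2 left out.

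The subunits of the MCM helicase, which unwinds DNA at the replication fork as a hexamer of Mcm2 to Mcm7, had HFD values above ND values in all 6 genes, but differed in size. Mcm6 had 29.2 and 30.2 TPM under ND and 57.7 and 53.6 under HFD, and its log2 fold change of 0.88 ± 0.06 (SE, adjusted p = 0.00863) was the largest of the subunits. Mcm5 (0.67) and Mcm2 (0.61) also rose by this rule. Mcm3 passed on the adjusted p-value (0.00971) but its log2 fold change of 0.50 was under 1.5-fold. Mcm7 had 12.1 and 12.7 TPM under ND and 19.0 and 15.3 under HFD, and its log2 fold change of 0.43 did not pass (adjusted p = 0.0988). It was 0.28 with HFD replicate 1 left out and 0.58 with HFD replicate 2 left out, and the gene shares exon bases with the genes Ap4m1 and Cops6 on the other strand. Mcm4 had 42.8 and 48.2 TPM under ND and 54.1 and 54.7 under HFD, and its log2 fold change of 0.26 ± 0.08 (SE) did not pass (adjusted p = 0.10). Uhrf1, which directs maintenance methylation to newly copied DNA, rose by 0.69 on the log2 scale (adjusted p = 0.0345). The calls of Mcm2 and Mcm5 rested on a change only just over 1.5-fold and were lost with a pseudocount of 5 and under quantile normalization. That of Uhrf1 was lost with a pseudocount of 5 (log2 fold change 0.44) and with no filter on low values (limma adjusted p = 0.0934).

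The mitosis genes showed the largest increases. Of 23 members, 15 rose, none fell and 8 were not DEGs, and the median log2 fold change was 0.95. The summed level was 303 and 316 TPM in the ND libraries and 671 and 537 TPM in the HFD libraries. HFD replicate 1 was the higher of the HFD libraries, whereas they were nearly equal for replication. Without HFD replicate 1 the number of calls was 12, with Mki67, Kif11 and Nusap1 lost, and the median was 0.81. Without HFD replicate 2 it was 19, of which 13 were among the 15, and the median was 1.15. Without either ND library it was 0.

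Ccnb1, cyclin B1, which activates Cdk1 at the entry into mitosis, had 13.5 and 14.1 TPM under ND and 44.3 and 35.3 under HFD. Both HFD libraries were far above ND, and the log2 fold change of 1.45 ± 0.14 (SE, adjusted p = 0.0121) was the largest of the 53 members. Cdk1, its kinase, had 14.3 and 13.0 TPM under ND and 38.3 and 38.2 under HFD, a log2 fold change of 1.42 ± 0.07 (SE, adjusted p = 0.00577). The HFD libraries were nearly equal for Cdk1 and apart for Ccnb1. Ccna2, cyclin A2, had 12.7 and 12.8 TPM under ND and 30.2 and 26.8 under HFD, a log2 fold change of 1.10 (adjusted p = 0.00934).

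The general markers of dividing cells moved in the same direction. Mki67, the gene of the Ki-67 antigen, had 10.9 and 12.0 TPM under ND and 25.6 and 21.5 under HFD. The groups did not overlap, and the log2 fold change was 0.98 ± 0.12 (SE, adjusted p = 0.0190), which was 0.86 without HFD replicate 1 (adjusted p = 0.0514). Top2a, the topoisomerase that untangles chromosomes, had 10 and 10.8 TPM under ND and 23.7 and 20.6 under HFD, a log2 fold change of 1.02 ± 0.10 (SE, adjusted p = 0.0137).

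Cenpe, Tpx2 and Nusap1 completed the 6 largest changes among the mitosis genes. Cenpe, a kinesin motor at the kinetochore, had 3.7 and 4.0 TPM under ND and 12.7 and 8.7 under HFD, so that HFD replicate 1 was the highest and both HFD values lay above ND. Its log2 fold change was 1.25 ± 0.21 (SE, adjusted p = 0.0323). Tpx2, which activates Aurora A on spindle microtubules, had 1.8 and 1.9 TPM under ND and 6.0 and 5.3 under HFD, a log2 fold change of 1.22 ± 0.11 (SE, adjusted p = 0.0111). Nusap1, a protein that bundles spindle microtubules, had 4.4 and 6.0 TPM under ND and 13.4 and 10.6 under HFD, a log2 fold change of 1.07 ± 0.20 (SE, adjusted p = 0.0397). In all 3 genes the groups did not overlap, although the ND libraries of Nusap1 differed from each other more than those of the other genes. The other 7 mitosis genes that rose, namely Ccnb2, Birc5, Bub1, Bub1b, Kif11, Prc1 and Ube2c, had log2 fold changes between 0.87 and 1.04.

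The smallest changes among the mitosis genes were those of Cenpa, Aurkb and Cdc20. Cenpa, the histone H3 variant of the centromere, had 14.7 and 14.6 TPM under ND and 13.0 and 13.7 under HFD. It was the only mitosis gene with both HFD values below ND, and its log2 fold change of -0.13 ± 0.07 (SE) did not pass (adjusted p = 0.260). Aurkb, the Aurora kinase of the chromosomal passenger complex, had 14.4 and 14.5 TPM under ND and 18.0 and 14.4 under HFD. Its HFD replicate 2 equalled ND, so the groups overlapped and the log2 fold change of 0.15 (adjusted p = 0.473) rested on HFD replicate 1. Cdc20, the activator of the anaphase-promoting complex, had 25.1 and 25.7 TPM under ND and 49.0 and 32.4 under HFD. Both HFD values were higher but far apart, and the log2 fold change of 0.63 ± 0.23 (SE) did not pass (adjusted p = 0.138), and was 0.34 with HFD replicate 1 left out and 0.92 with HFD replicate 2 left out. The remaining 5 mitosis genes that were not DEGs, namely Foxm1, Cenpf, Aurka, Plk1 and Kif20a, had log2 fold changes between 0.76 and 0.95 with standard errors of 0.20 to 0.30. Kif20a missed the threshold at an adjusted p of 0.050.

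**Figure D3:**
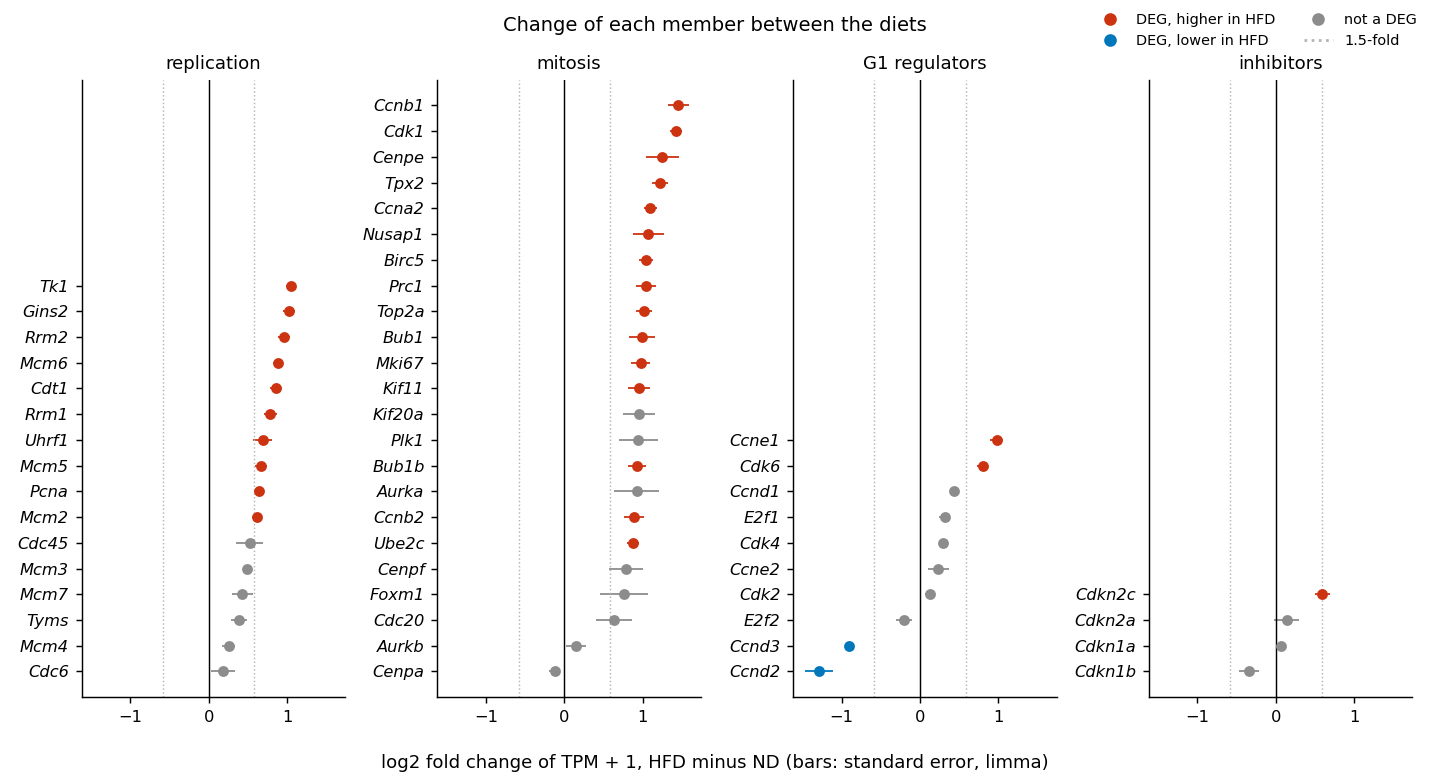
The log2 fold change of TPM + 1 from ND to HFD for each of the 53 members (points) with its standard error from limma (bars), by group, with dotted lines at a change of 1.5-fold. Of the mitosis genes 15 are DEGs that rose (red) and of the replication genes 10, while Ccnd2 and Ccnd3 are the only DEGs that fell (blue).

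The G1 regulators did not move in one direction. Of 10 members, 2 rose, 2 fell and 6 were not DEGs, and the median log2 fold change was 0.26. Of all genes tested, 8.08% rose and 10.3% fell. Both HFD values lay above both ND values in 7 genes, against 34.1% of all genes tested, and below them in 3, against 32.8%. With 1 library left out, the log2 fold change ran from -1.51 to -1.07 for Ccnd2 and from -0.94 to -0.86 for Ccnd3. It ran from 0.92 to 1.03 for Ccne1 and from 0.74 to 0.85 for Cdk6. Such a fit has 1 library in a diet and takes its spread from the other diet, so it does not test these calls.

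The 3 D-type cyclins, which carry growth signals to Cdk4 and Cdk6, differed from each other. Ccnd2 had 21.0 and 21.9 TPM under ND and 6.9 and 9.7 under HFD, so both HFD libraries lay well below both ND libraries. Its log2 fold change was -1.29 ± 0.18 (SE, adjusted p = 0.0238), the largest decrease of the members. Ccnd3 had 39.6 and 37.6 TPM under ND and 20 and 20.4 under HFD, a log2 fold change of -0.90 ± 0.06 (SE, adjusted p = 0.00759). Ccnd1 had 54.4 and 56.7 TPM under ND and 77.1 and 74.1 under HFD. It lay higher in both HFD libraries, and its log2 fold change of 0.44 ± 0.05 (SE) had an adjusted p of 0.0179 but was under 1.5-fold. Beside these values, the 7 T cell markers tested had a median log2 fold change of -2.29 with summed levels of 394 and 404 TPM under ND and 66.9 and 79.1 under HFD, and the 7 B cell markers tested had a median of -1.98. The part of these cells in the values of Ccnd2 and Ccnd3 was not tested. All 3 cyclin genes share exon bases with a gene on the other strand, and whether strand was used in counting is not given in the sources used here.

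Of the kinases of G1, Cdk6 rose and Cdk4 and Cdk2 did not pass the rule. Cdk6 had 16.3 and 17.7 TPM under ND and 30.4 and 30.1 under HFD, a log2 fold change of 0.80 ± 0.07 (SE, adjusted p = 0.0109). Cdk4 had 96.1 and 97.8 TPM under ND and 116.2 and 122.1 under HFD, a log2 fold change of 0.29 (adjusted p = 0.0304), which is under 1.5-fold. Cdk2, the partner of cyclin E, had 17.9 and 18.7 TPM under ND and 20.3 and 19.9 under HFD, a log2 fold change of 0.13 (adjusted p = 0.217). The HFD values of all 3 kinases lay above ND, by widely different amounts.

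Of the E-type cyclins, which bring the cell into S phase, Ccne1 had 7.0 and 6.4 TPM under ND and 14.4 and 13.9 under HFD. Its groups were well apart, with a log2 fold change of 0.98 ± 0.08 (SE, adjusted p = 0.0105). Ccne2 was low, with 1.7 and 1.4 TPM under ND and 2.2 and 1.8 under HFD, and its log2 fold change of 0.23 did not pass (adjusted p = 0.295). E2f1, an activating E2F factor, had 22.6 and 24.5 TPM under ND and 30.2 and 28.9 under HFD, a log2 fold change of 0.32 ± 0.07 (SE, adjusted p = 0.0558). E2f2, another activating E2F factor, had 5.3 and 4.9 TPM under ND and 4.5 and 4.1 under HFD, a log2 fold change of -0.20 (adjusted p = 0.226). Neither E2F gene passed, although the HFD values of E2f1 lay above ND and those of E2f2 below.

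Of the 4 CDK inhibitors, Cdkn2c alone was a DEG. Cdkn2c, the Ink4 inhibitor p18, had 26.7 and 27.2 TPM under ND and 44.4 and 38.2 under HFD. The groups did not overlap, and the log2 fold change of 0.59 ± 0.10 (SE, adjusted p = 0.0301) was just over 1.5-fold. It fell under this limit without HFD replicate 1 (0.49) and under median-ratio scaling (0.57). Cdkn1a, the p53 target p21, was the second most abundant member, with 364.0 and 359.7 TPM under ND and 362.2 and 396.1 under HFD. Its groups overlapped, and its log2 fold change was 0.07 ± 0.06 (SE, adjusted p = 0.477). Cdkn1b, p27, had 98.0 and 106.9 TPM under ND and 73.1 and 88.7 under HFD. Both HFD values were lower, but the log2 fold change of -0.34 ± 0.12 (SE) did not pass (adjusted p = 0.134). Cdkn2a, whose locus encodes the Ink4 inhibitor p16 and the unrelated protein Arf from shared exons that these values do not separate, had 2.7 and 2.7 TPM under ND and 2.6 and 3.6 under HFD. That is 45 to 59 reads per library, the groups overlapped, and the log2 fold change of 0.14 did not pass (adjusted p = 0.585).

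Other replication and mitosis genes gave counts in the same directions, beside 8.08% of all genes tested that rose and 10.3% that fell. Of 42 other replication genes, 11 rose and none fell, with a median log2 fold change of 0.37. Brca1, a DNA repair gene with 1.1 and 1.4 TPM under ND and 6.1 and 4.9 under HFD, rose most (1.53, adjusted p = 0.0138), followed by Gmnn (1.11), the inhibitor of Cdt1. The lowest log2 fold changes were those of Rpa3 (-0.31), of the single-strand binding complex, and Pold1 (-0.15), a DNA polymerase, and neither passed. Of 54 other mitosis genes tested, 22 rose and none fell, with a median of 0.70. Hmmr (1.29), of the spindle, and Pbk (1.20), a mitotic kinase, rose most, while Pttg1, the securin, (-0.43) and Cks2, a subunit of CDK complexes, (-0.41) had the lowest values and were not DEGs. These lists were drawn up with earlier results of these data known, and the counts are a description.

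Among 28 other G1 and checkpoint regulators tested, 4 rose and none fell, with a median log2 fold change of 0.44. Of all genes tested, 8.08% rose and 10.3% fell. Wee1, the kinase that holds Cdk1 inactive, had 9.1 and 9.7 TPM under ND and 26.0 and 31.4 under HFD, a log2 fold change of 1.51 (adjusted p = 0.00977). It was the largest increase of the list, and here HFD replicate 2 was the higher library. Ccnf, cyclin F, rose by 0.94. The others that rose, named here after their values were seen, were the repressive E2F factors E2f8 (0.85) and E2f7 (0.65). Rb1 (-0.29) and Rbl2 (-0.28), of the retinoblastoma family, had the lowest values and were not DEGs. Of 10 other inhibitors and growth arrest genes, 3 rose and 1 fell, beside the same shares of all genes. Cdkn1c, the Cip/Kip inhibitor p57, rose by 0.89 and Cdkn2b, the Ink4 inhibitor p15, by 0.87, on the log2 scale. Gadd45a, a stress-induced growth arrest gene named here after its value was seen, was the other that rose (0.71). Btg2, an antiproliferative gene, was abundant, with 1569.9 and 1545.6 TPM under ND and 768.4 and 882.8 under HFD. Both HFD libraries were lower, and its log2 fold change was -0.92 (adjusted p = 0.0115). Cdkn2d, the Ink4 inhibitor p19, had a log2 fold change of -0.70 and did not pass (adjusted p = 0.0655).

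Because the eWAT lies next to the epididymis and testis, the ratio of the HFD libraries was compared with that of Prm1. Prm1, a protamine that packs the DNA of spermatids, marks spermatids and not germ cells of earlier stages. Prm1 had 469.8 and 475.4 TPM under ND and 1599.6 and 531.5 under HFD, so that HFD replicate 1 stood apart from the other 3 libraries. On the log2 scale, HFD replicate 1 exceeded HFD replicate 2 by 1.59 for Prm1 and by a median of 1.9 over the 11 spermatid genes tested (range 1.59 to 2.03). Prm2, the most abundant of them, had 578.2 and 580.3 TPM under ND and 2160.0 and 677.2 under HFD. Over the 7 spermatocyte genes tested, the median log2 ratio was 1.44 (range 1.0 to 2.19). Their most abundant gene, Sycp3, of the meiotic chromosome axis, had 12.4 and 12.1 TPM under ND and 23.5 and 6.8 under HFD. It was thus lower in HFD replicate 2 than in the ND libraries. The same held for the summed TPM of the 12 spermatocyte genes listed, 36.1 and 37.2 under ND and 59.6 and 14.8 under HFD. Prm1 did not show this fall. Of the 8 spermatogonia genes only 3 passed the filter, of which 1 rose and 2 fell. The others, namely Dazl, Stra8, Sohlh1, Sohlh2 and Nanos3, were at 0.7 TPM or less in every library. For the 3 tested, the log2 ratio of the HFD libraries ran from -0.67 to -0.10, opposite in sign to the other germ cell lists. Whether these 3 genes reflect spermatogonia was not tested. Uchl1, with the highest mean over the 4 libraries, had 6.9 and 8.0 TPM under ND and 24.2 and 39.2 under HFD, while Kit (log2 fold change -0.98) and Zbtb16 (-0.62), named here after their values were seen, were lower in both HFD libraries.

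No member reached the ratio of Prm1. RNA from other cells in a member would hold its ratio below that of Prm1 in any case, so this does not measure a germ cell part. The median of this log2 ratio between the HFD libraries was 0.10 for replication (range -0.08 to 0.37), 0.04 for the G1 regulators, 0.30 for mitosis (range -0.07 to 0.77) and -0.20 for the inhibitors, against 0.07 for all genes tested. The ratio was above 0 for 22 of 23 mitosis genes and 11 of 16 replication genes, and for 10579 of all 16849 genes tested. HFD replicate 1 was at least 1.5-fold above HFD replicate 2 for 3 of 53 members, against 14.8% of all genes tested. These were Foxm1 (0.77), a transcription factor of mitotic genes, Aurka (0.71), the Aurora kinase of the spindle poles, and Plk1 (0.63), the polo kinase of mitotic entry. In the ND libraries the same ratio had medians of -0.07 for replication, -0.06 for mitosis and -0.06 for all genes. Under median-ratio scaling the HFD medians of replication (-0.12) and of the G1 regulators (-0.17) changed sign and that of mitosis was 0.09, with Prm1 at 1.36. With 1 library on each side, no test of these ratios was made.

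**Figure D4:**
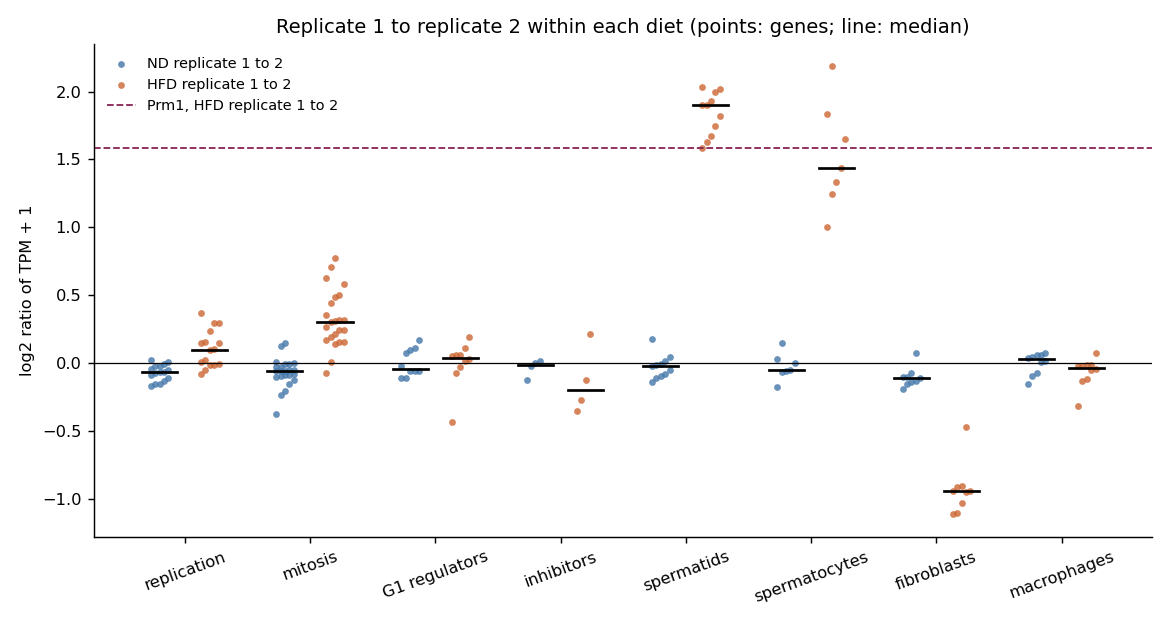
The log2 ratio of TPM + 1 of replicate 1 to replicate 2 within ND (blue) and within HFD (orange) for each gene (points) of the 4 groups of members and of 4 marker lists, with the median of each as a black line and Prm1 in HFD as a dashed line at 1.59. In HFD, 22 of 23 mitosis genes lie above 0, with a median of 0.30 and a range of -0.07 to 0.77, and the 11 spermatid genes tested lie between 1.59 and 2.03.

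The values of these 3 genes show how far HFD replicate 1 enters a result. Foxm1 had 19.0 and 20.4 TPM under ND and 44.8 and 25.8 under HFD, a log2 fold change of 0.76 ± 0.30 (SE, adjusted p = 0.163). Aurka had 5.8 and 6.1 TPM under ND and 15.8 and 9.3 under HFD, a log2 fold change of 0.92 ± 0.28 (SE, adjusted p = 0.0998). Plk1 had 18.9 and 17.0 TPM under ND and 44.3 and 28.3 under HFD, a log2 fold change of 0.94 ± 0.25 (SE, adjusted p = 0.0781). In each of them HFD replicate 2 also lay above both ND libraries. Foxm1 shares exon bases with Tex52 and Gm44596 on its own strand. Without HFD replicate 1 the log2 fold changes were 0.37, 0.57 and 0.63, and without HFD replicate 2 they were 1.15, 1.27 and 1.26. Markers of fibroblasts had the opposite ratio, with a median of -0.95 (range -1.12 to -0.47), and markers of macrophages one of -0.04. With HFD replicate 1 left out, the library with the most spermatid RNA, the median log2 fold change was 0.64 for replication and 0.81 for mitosis, against 0.65 and 0.95 with all 4 libraries. The part of germ cells, fibroblasts and lymphocytes in the levels of the members was not tested.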

How the data were processed

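RNA-seq was analysed for 2 ND and 2 HFD libraries of eWAT CD45+ cells. The authors prepared stranded mRNA libraries and deposited TPM per gene, printed to 1 decimal; the submitters' processing notes name Trim Galore 0.4.2, cutadapt 1.9.1, STAR 2.6.1e, featureCounts 1.6.2 and the mm10 build. The gene annotation and the use of strand are not given in the sources used here. TPM are shares of a library, so a gene can fall because others rose.

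Genes that reached 1 TPM in 2 or more libraries were kept. HFD was compared with ND as log2(TPM + 1), which understates the change of low genes, with limma 3.58.1 in R 4.3.3 (lmFit, eBayes with a variance trend) and Benjamini-Hochberg adjustment over all genes tested. The steps were tested on simulated data. An exact permutation test of 2 against 2 cannot go below p = 0.333 (two-sided), so none is given. The members, the lists of other pathway genes and of cell type markers, and the rule for named genes were chosen with earlier results of these data known. The rule gave values per library for Mki67, Top2a and Pcna, for the 6 largest and 3 smallest changes in replication and in mitosis, for all G1 regulators and inhibitors, for the 3 largest differences between the HFD libraries, and for the most changed genes of each pathway list. Aurka and Plk1 were named by the part on the HFD libraries.

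Marker lists were also made for dendritic cells (2 of 6 lower), neutrophils (3 of 4 tested lower), plasma cells (2 higher and 3 lower of 6), endothelial cells (0 of 7 changed), adipocytes (1 higher and 2 lower of 6), erythroid cells (0 of 4 tested changed), spermatogonia (1 higher and 2 lower of 3 tested), and spermatids and spermatocytes (0 of 11 and 0 of 7 tested changed). Of the macrophage markers, 2 rose and 1 fell of 10. Read numbers were estimated from the step of microRNA genes, between 0.0606 and 0.0711 TPM for 1 read on 1 kb, with exon lengths from GENCODE vM21, and are approximate. By that annotation, 21 members share exon bases with another gene, 19 of them with one on the other strand. These 19 include the DEGs Gins2, Tk1, Ccnd2, Ccnd3, Cdk6, Ccna2, Prc1, Nusap1 and Ube2c. Replicate numbers are shared between the diets, but same-numbered libraries did not deviate together (correlation -0.015), so no block was used. Promoter windows are from RefSeq for GRCm38.p6. Plots used matplotlib 3.10.9 (Python 3.11.15).

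Other settings tried were pseudocounts of 0.1 and 5, the filter left off or set to a mean of 5 TPM, robust eBayes or eBayes with no trend, quantile normalization, median-ratio scaling, TPM rescaled after removal of the 50 most abundant genes, a replicate block, a 2-fold limit or none, and each library left out in turn.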

Additional observations from a re-analysis of the deposited data

How the results depend on the processing

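The direction of the 30 called members held under every setting tried. The count of members called was 18 with no filter on low values, 12 at a 2-fold limit, and 0 to 32 with 1 library left out. For replication it was 2 at a 2-fold limit and 0 to 8 with 1 library left out, for the G1 regulators 1 and 0 to 4, and for mitosis 9 and 0 to 19, with 7 for mitosis without the filter. The 1 call among the inhibitors became 0 under median-ratio scaling, no filter, a pseudocount of 5, quantile normalization, the removal of the 50 most abundant genes and a 2-fold limit, and was 0 to 1 with 1 library left out. With a replicate block, limma called 3 members (Pcna, Gins2 and Cdk1), with 2 in replication, 0 among the G1 regulators, 1 in mitosis and 0 among the inhibitors, while 37 members had an unadjusted p under 0.05. The fit has 1 residual degree of freedom, and the libraries share only a number. Over all genes, calls fell from 1362 higher and 1736 lower to 407 and 405 with the block, 803 and 976 without the filter, and 943 and 1072 with a pseudocount of 5.

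The median log2 fold change of replication was 0.56 with a pseudocount of 5, 0.58 under quantile normalization, 0.60 without the 50 most abundant genes, and 0.59 to 0.70 with 1 library left out. For the G1 regulators it was 0.31 at a mean TPM of at least 5 and with a pseudocount of 0.1, 0.19 with a pseudocount of 5, 0.21 under quantile normalization, 0.22 without the 50 most abundant genes, and 0.21 to 0.29 with 1 library left out. For mitosis it was 1.05 with a pseudocount of 0.1, 0.74 with one of 5, and 0.81 to 1.15 with 1 library left out. The log2 ratio of the HFD libraries under median-ratio scaling was 1.36 for Prm1, -0.12 for replication, -0.17 for the G1 regulators, 0.093 for mitosis and -0.42 for the inhibitors, and it was 0.22 for mitosis with a pseudocount of 5. Of members that were not DEGs, Aurkb ranged from -0.0047 (without HFD replicate 1) to 0.30 with 1 library left out, and Cdkn1a reached -0.045 under quantile normalization and Cdkn2a -0.040 without HFD replicate 2. Kif20a became a DEG at a mean TPM of at least 5, with a pseudocount of 0.1, without the 50 most abundant genes and under either scaling. The cause of these shifts was not tested. Without HFD replicate 2 the median of all genes was 0.11, and 62.7% of calls were higher against 44.0% with all libraries.

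When an ND library is left out, the lone one is assumed to vary like the HFD pair. When an HFD library is left out, the lone one is assumed to vary like the ND pair. The limit of 1.5-fold, and not the adjusted p, kept Mcm3, Ccnd1 and Cdk4 from being called. Cdc6, Ccne2 and Cdkn2a had under 100 reads in some library, and the part of depth in their missed calls was not tested. A missed threshold says nothing of equal levels.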
